A study of Mus musculus with 9 samples.

Results

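Laminins and integrins, the chains that anchor skin cells to the basement membrane and to their matrix, were followed through RNA sequencing of mouse skin. The members were taken from the genes of the table whose symbols name a laminin chain (Lama, Lamb or Lamc with a number from 1 to 5) or an integrin chain (Itga or Itgb), and proteins that only bind or resemble integrins were left out. Described here are 37 genes of 55382, with 10 laminin and 27 integrin chains, which were divided into 8 keratinocyte chains, 19 mesenchymal or widely made chains and 10 leukocyte or platelet chains. The rule itself used no measured value.

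The 9 libraries came from the back skin of female C57BL/6 mice in 3 groups of 3. In the EXO group, skin was first made fibrotic with bleomycin, a DNA-damaging drug, given under shaved skin as 100 µL at 1 mg/mL for 28 days, and then received 15 µg of exosomes, small vesicles shed by bone marrow mesenchymal stem cells (BMSCs), with a treatment time of 7 days. The BLM group had the same bleomycin injections without exosomes, and its mice received PBS by the study's protocol, whereas the sample label gives its treatment as none. The NORMAL group had PBS and no bleomycin. Libraries carry the numbers 1 and 2 in their titles, and the unnumbered title of each group is called 3 here. The sources used here give no age and do not say that each library was a separate mouse, so the p-values measure the spread between these libraries, which may be technical.

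A laminin is a cross-shaped trimer of an α, a β and a γ chain, encoded by Lama, Lamb and Lamc genes. In the epidermis the trimer that holds the Lama3 and Lamb3 products binds the integrin pair of Itga6 and Itgb4 in hemidesmosomes, the rivets that tie basal keratinocytes to the basement membrane, while the Lama5 product forms a second epidermal laminin with the Lamb1 or Lamb2 and the Lamc1 products. Itga3 and Itgb1 encode the other main laminin receptor of keratinocytes. Loss of the epidermal trimer or of its hemidesmosomal receptor causes blistering skin disease in humans. Integrins of fibroblasts, vessels and muscle bind fibronectin, collagens and other laminins, and those of leukocytes serve adhesion and migration.

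Values are FPKM, fragments scaled to transcript length in kilobases and to the size of the library. Fewer cells of a type and less RNA per cell cannot be told apart in whole skin. The libraries differed in makeup, also within a group. Mitochondrially encoded transcripts took 18.7% to 34.4% of the FPKM total in EXO, 27.8% to 50.9% in BLM, with the highest share in BLM2, and 19.1% to 22.7% in NORMAL. Summed FPKM of the 5 basal keratinocyte markers (Krt5, Krt14, Krt15, Trp63 and Col17a1) was 6603, 6929 and 11274 in the EXO libraries 1, 2 and 3, against 3531, 1046 and 3963 in the BLM libraries and 4084, 1048 and 8410 in the NORMAL libraries. Every EXO library therefore held more basal keratinocyte transcripts than any BLM library, and BLM2 and NORMAL2 held the least. The sum of 6 hair matrix markers, which include Shh and Mki67, was 12.8, 9.15 and 17.8 in EXO, 201, 39.2 and 212 in BLM and 8.82, 3.59 and 86.1 in NORMAL. These sums move with several of the chains below, and their part in the results was not tested.

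Tests covered the 23 of 37 chains with 1 FPKM or more in at least 3 of the libraries, which included all 8 keratinocyte chains, 11 of 19 mesenchymal chains and 4 of 10 leukocyte chains. The highest means over the 9 libraries were those of Itgb4 (22.4 FPKM), Lamb3 (16.4), Itgb1 (16.2), Itga3 (15.1), Lamb2 (15.0), Itgb5 (13.3) and Lama5 (12.9). The 37 chains together made up 0.0274% to 0.0633% of the FPKM total in EXO, 0.00784% to 0.0367% in BLM and 0.0125% to 0.0449% in NORMAL, with BLM2 lowest of all libraries.

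**Figure D1:**
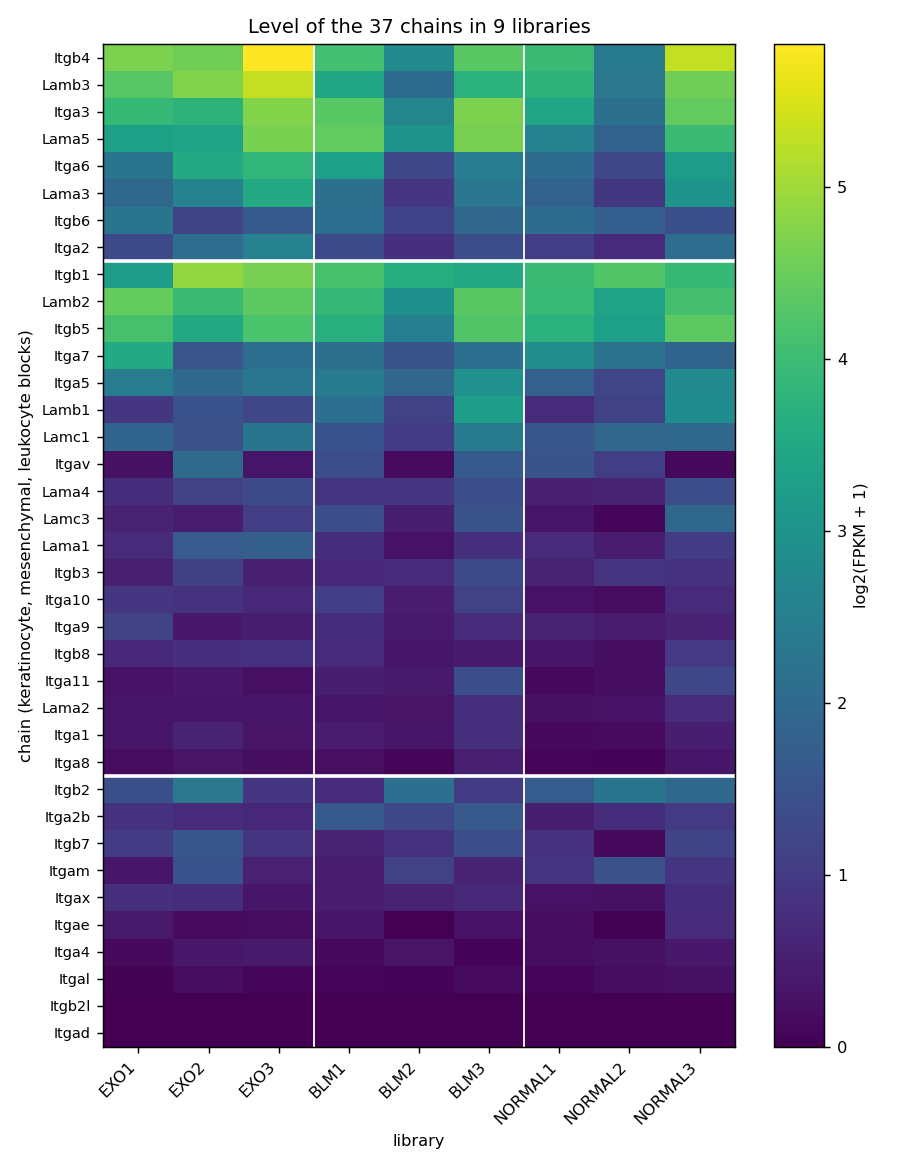
Level of the 37 laminin and integrin chains as log2(FPKM + 1), with chains in rows (keratinocyte block on top, then mesenchymal, then leukocyte) and the EXO, BLM and NORMAL libraries in columns. The keratinocyte block is brightest in EXO3 and darkest in BLM2 and NORMAL2, and Itgad and Itgb2l are listed at 0 in all 9 libraries.

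The first comparison, EXO against BLM, asked what exosome treatment changed in bleomycin skin. Chains of the hemidesmosome had higher values in EXO, led by Lamb3 and Itgb4, whose EXO and BLM libraries did not overlap, while Lama5 and Itga3 had log2 changes near 0 (-0.23 and 0.26), whose sign turned with the scaling (Lama5 0.09 at the same total, Itga3 -0.00 after median-ratio scaling). No chain passed the test adjusted over all genes. Lamb3, the β chain of the epidermal laminin, lay at 19.07, 25.56 and 38.46 FPKM in EXO and 10.13, 3.12 and 12.14 FPKM in BLM, with 12.66, 3.93 and 22.60 FPKM in NORMAL. All EXO libraries were above all BLM libraries, and NORMAL3 reached into the EXO range. The log2 change of Lamb3 for EXO against BLM was 1.71 (SE 0.62) on the log2(FPKM + 1) scale, which understates changes of low values, with an unadjusted p of 0.0189 and an adjusted p of 0.608 (limma, Benjamini-Hochberg over all 14254 genes tested). The summed basal keratinocyte markers given above separated EXO from BLM in the same way.

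Itgb4, the β chain of the hemidesmosomal receptor, lay at 24.76, 22.53 and 55.96 FPKM in EXO, 15.97, 5.76 and 19.27 in BLM and 14.80, 4.18 and 38.02 in NORMAL. On GRCm38 Itgb4 lies at chr11:115974709-116008412 (plus strand). Its EXO libraries were again all above its BLM libraries, narrowly so for EXO2 against BLM3, and the log2 change was 1.30 (SE 0.71; limma, adjusted p = 0.774), which was 0.81 without BLM2. Lama3, the α chain of the epidermal laminin, lay at 2.95, 5.05 and 10.93 FPKM in EXO, 3.47, 0.90 and 3.90 in BLM and 2.49, 0.94 and 7.13 in NORMAL. It was below Lamb3 in every library, and its log2 change was 0.93 (SE 0.61; limma, adjusted p = 0.816), with 0.49 without BLM2 and 0.50 without EXO3.

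Itga6, the α chain of the hemidesmosomal receptor, lay at 3.77, 10.83 and 13.35 FPKM in EXO, 8.78, 1.38 and 4.49 in BLM and 3.10, 1.37 and 8.39 in NORMAL. EXO1 was below 2 of the BLM libraries, which set Itga6 apart from its partner Itgb4, and its log2 change was 0.89 (SE 0.66; limma, adjusted p = 0.821), with 0.35 without BLM2, 0.58 without EXO3 and 1.37 without EXO1 or BLM1. Itga2, the α chain of a collagen receptor of basal keratinocytes, had 1.45, 3.25 and 5.05 FPKM in EXO, 1.54, 0.72 and 1.60 in BLM and 1.09, 0.62 and 3.24 in NORMAL, a log2 change of 0.82 (SE 0.46; limma, adjusted p = 0.781). Itgb6, which keratinocytes make after wounding and which binds and activates latent TGF-β together with the Itgav product, had 3.85, 1.30 and 2.12 FPKM in EXO, 3.28, 1.27 and 2.82 in BLM and 3.15, 2.36 and 1.70 in NORMAL. Its log2 change was -0.03 (SE 0.41), with the largest value in the library numbered 1 of each group.

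**Figure D2:**
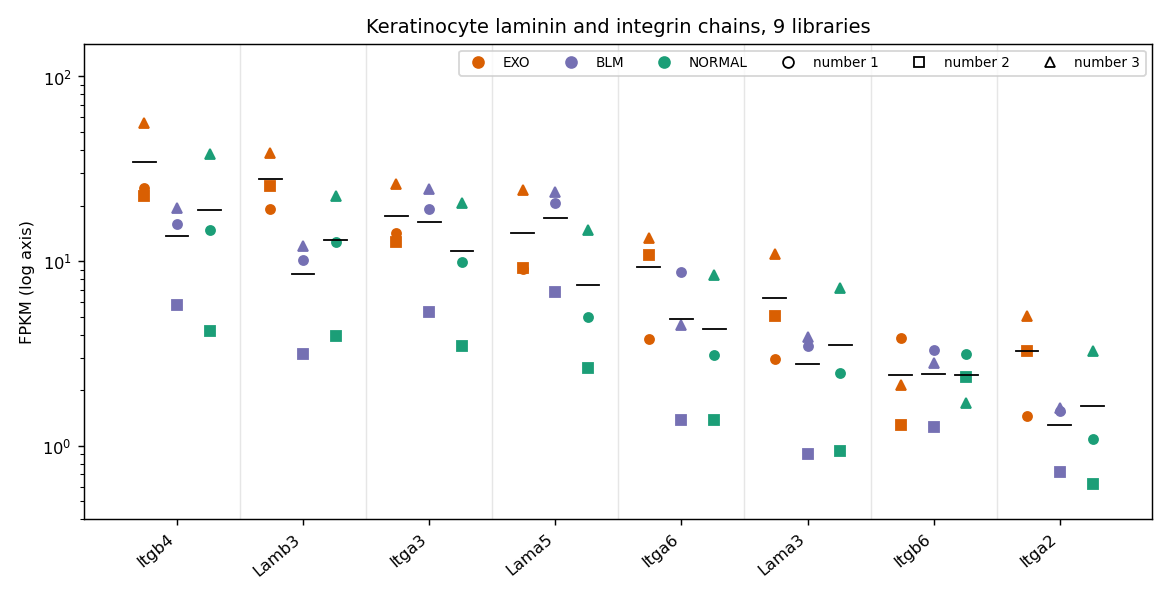
FPKM of the 8 keratinocyte chains on a log axis, with EXO, BLM and NORMAL from left to right within each chain, 1 symbol per library (circle for number 1, square for 2, triangle for 3) and a bar at the mean of 3 libraries. For Lamb3 the EXO libraries sit between 19.07 and 38.46 FPKM and the BLM libraries between 3.12 and 12.14 FPKM, and the libraries BLM2 and NORMAL2 are at the bottom for most chains.

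Of the 23 chains tested, 0 passed at an adjusted p below 0.05 for EXO against BLM (limma), where 0.014% of all genes did. At an unadjusted p below 0.05 there were 2 chains, Lamb3 (higher) and Itga2b (lower), against 6.84% of all genes. The study called genes by an unadjusted p below 0.05 together with a log2 change of more than 1 in size, and by these thresholds Lamb3 was the 1 chain counted (5.3% of all genes). Lamb3 no longer met these thresholds without BLM2 (log2 change 1.19, unadjusted p = 0.0873, limma) or without EXO3 (log2 change 1.45, unadjusted p = 0.066), and without EXO1 the count was 4, with Itga2, Itgb1 and Lama1 added, where 4.96% of all genes met them. With the replicate number as a block, Lamb3 (unadjusted p = 0.00226) and Itgb4 (0.00853) met them, against 7.7% of all genes, while 0 chains passed at an adjusted p (smallest 0.129, limma; 0.0772% of all genes passed) and 6 were past an unadjusted p of 0.05 (15.5%). Non-overlapping groups with EXO above BLM were seen for 2 chains, Lamb3 and Itgb4, while 11.4% of all genes tested showed this. Among the chains tested Itga2b alone had every EXO library below every BLM library (2.66%). Itga2b passed the filter for testing only through its BLM libraries. In all 3 same-numbered pairs 3 chains were higher in EXO (28.2% of all genes) and 2 were lower (7.16%).

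The median log2 change of the keratinocyte chains was 0.86, with 6 of 8 higher in EXO, beside 0.22 for all genes, of which 68.8% were higher. The mesenchymal chains had a median of 0.24 and the leukocyte chains 0.16. The scale of the libraries moved all of these together, so that the median of all genes was 0.52 after rescaling to the same total and 0.01 after median-ratio scaling. The keratinocyte median exceeded that of all genes by 0.64, and by 0.34 (without the libraries numbered 2) to 0.98 (without EXO1) over the alternatives tried. Without the libraries numbered 2 the keratinocyte median was 0.36, beside 0.02 for all genes.

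The second comparison, BLM against NORMAL, asked what bleomycin changed. Lama5, the α chain of the other epidermal laminin, had the largest positive log2 change of the chains tested, while Lamb3 and Lama3 had changes below 0. Lama5 lay at 20.54, 6.82 and 23.74 FPKM in BLM and 4.97, 2.64 and 14.79 in NORMAL, with 9.02, 9.19 and 24.33 in EXO. Each BLM library exceeded the NORMAL library of the same number, but BLM2 was below NORMAL3, so the groups overlapped. The log2 change was 1.20 (SE 0.64; limma, unadjusted p = 0.0875, adjusted p = 0.735). With the replicate number as a block the unadjusted p was 0.00743 (limma), which met the study's thresholds, and the adjusted p was 0.189. It also met them after median-ratio scaling (unadjusted p = 0.0231), without BLM2 (0.0267) and without NORMAL3 (0.0135, all limma). Without NORMAL2 the log2 change was 0.73 (unadjusted p = 0.292, limma). In all, Lama5 met the thresholds in 6 of 17 alternatives, the block included, and did not in the others, such as the same total.

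Lamb3 and Lama3 had log2 changes of -0.47 and -0.13 for BLM against NORMAL, and Itgb4 -0.15, all with adjusted p of at least 0.956 (limma). Lamb3 was lower in BLM than in NORMAL for all 3 same-numbered pairs, by little for number 2 (3.12 in BLM2, 3.93 in NORMAL2). Itga3, the α chain of the other keratinocyte laminin receptor, lay at 19.18, 5.32 and 24.64 FPKM in BLM and 9.85, 3.47 and 20.72 in NORMAL, with 14.11, 12.61 and 26.08 in EXO. As with Lama5, all 3 pairs were higher in BLM, with a log2 change of 0.54 (SE 0.66; limma, adjusted p = 0.951).

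For BLM against NORMAL, 0 of the 23 chains passed at an adjusted p below 0.05 (limma), where 0.014% of all genes did, and 1 chain, Itga2b, was past an unadjusted p of 0.05 (7.37% of all genes). By the study's thresholds 0 chains were counted (5.9% of all genes), and with the replicate block 1 (8.43%), which was Lama5. The count was 2 without BLM2, with Lama5 and Itgb2 (lower), beside 7.67% of all genes, and 2 without NORMAL3, with Lama5 and Lamb1 (higher), beside 14.7%. With the block 2 chains were past an unadjusted p of 0.05 (15.3%) and 0 at an adjusted p (0.421%; limma). All 3 pairs were higher in BLM for 5 chains (16.6% of all genes) and lower for 4 (21.6%). Groups did not overlap for 1 chain, Itga2b, with BLM above NORMAL (2.87%), and for 0 with BLM below (7.52%). Itga2b was tested only because its BLM libraries passed the filter. The medians were -0.06 for the keratinocyte, -0.09 for the mesenchymal and -0.09 for the leukocyte chains, beside -0.03 for all genes, of which 47.3% were higher in BLM. The keratinocyte median was -0.35 without NORMAL2 and 0.48 without NORMAL3.

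Because Lama5 and Lamb3 had log2 changes of opposite sign in both comparisons on the deposited scale (for EXO against BLM not at the same total), ratios between chains were taken within each library, where the scale of the library cancels. These 12 ratios were chosen after the values were seen and are a description without a test. Lama5 over Lamb3 was 0.473, 0.360 and 0.633 in EXO, 2.03, 2.19 and 1.96 in BLM and 0.393, 0.672 and 0.654 in NORMAL. The 3 BLM libraries, including BLM2 with its low levels, lay close together and stood clear of the other libraries. Of all genes tested, 17% had a ratio to Lamb3 that was higher in every BLM library than in every EXO and NORMAL library. Lama5 over Lama3 was 1.82 to 3.06 in EXO, 5.92 to 7.58 in BLM and 2.00 to 2.81 in NORMAL, and no share over all genes was taken for this ratio.

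Values of the chains were also taken relative to Krt14, the main type I keratin of basal cells. Per 1000 FPKM of Krt14, Lama5 was 4.98, 4.74 and 9.04 in EXO, 19.9, 23.0 and 20.3 in BLM and 4.59, 11.1 and 7.12 in NORMAL. Itga3 was 7.78, 6.50 and 9.70 in EXO, 18.6, 17.9 and 21.0 in BLM and 9.10, 14.5 and 9.97 in NORMAL. Of the 23 chains, these 2 alone were higher in all BLM libraries than in all others on this scale, which 8.01% of all genes were, and the same 2 were those with all BLM libraries above NORMAL (8.47%). A count of 2 among 23 chains is near these shares and does not set the chains apart from all genes. All EXO libraries were below all BLM libraries for 11 of the 23 chains, against 57.3% of all genes. Lamb3 per 1000 Krt14 stayed within 10.5 to 14.3 in EXO, 9.82 to 10.5 in BLM and 10.9 to 16.5 in NORMAL. Itgb4 was 11.6 to 20.8 in EXO, 15.5 to 19.4 in BLM and 13.7 to 18.3 in NORMAL. Lama3 was 1.63 to 4.06 in EXO, 3.03 to 3.36 in BLM and 2.30 to 3.94 in NORMAL. The lowest EXO value of Lamb3 lay just above its highest BLM value, so the wide gap between EXO and BLM in FPKM of Lamb3 was not seen per Krt14. A ratio shows unequal change of its 2 genes and not which of them changed.

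**Figure D3:**
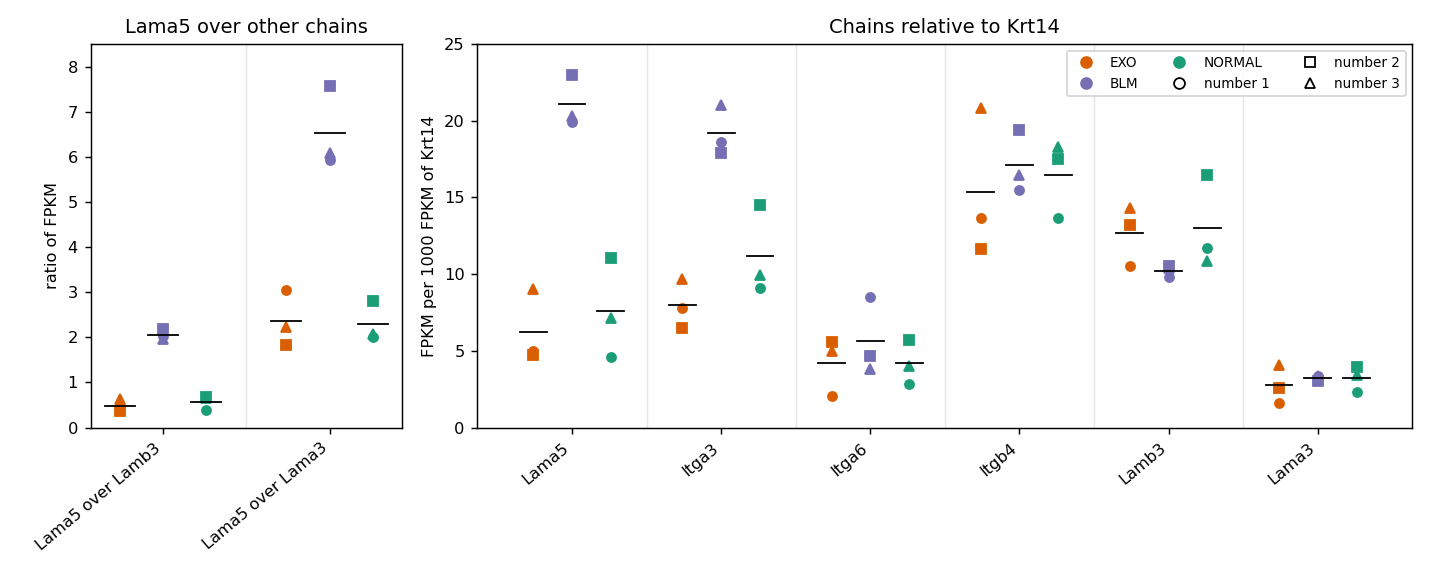
Ratios of FPKM within each library, with Lama5 over Lamb3 and over Lama3 on the left and 6 keratinocyte chains per 1000 FPKM of Krt14 on the right, for EXO, BLM and NORMAL from left to right, 1 symbol per library and a bar at the mean. BLM stands above both other groups for both ratios on the left and for Lama5 and Itga3 on the right, while Itga6, Itgb4 and Lama3 overlap.

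The start regions of Lama5 and Lamb3 are shown because the ratio of these chains was highest in BLM. Windows of 249 bases upstream of the start were taken from RefSeq sequence (GRCm38.p6) and hold no annotated exon. Lama5 (ENSMUSG00000015647) lies at chr2:180176373-180225859 on the minus strand and Lamb3 (ENSMUSG00000026639) at chr1:193207699-193343878 on the plus strand, both protein-coding, and the Lamb3 window, at the first of 2 starts in the table, lies within an intron of longer annotated transcripts. The windows are chr2:180225861-180226109 for Lama5 and chr1:193301744-193301992 for Lamb3, with capitals marking matches to the GC box GGGCGG or its complement, a motif bound by Sp1.
Lama5: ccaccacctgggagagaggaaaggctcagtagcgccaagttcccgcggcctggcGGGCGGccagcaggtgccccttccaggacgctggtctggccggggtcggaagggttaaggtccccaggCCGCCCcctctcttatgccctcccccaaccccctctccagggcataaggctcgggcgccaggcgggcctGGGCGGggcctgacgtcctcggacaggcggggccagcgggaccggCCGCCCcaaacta
Lamb3: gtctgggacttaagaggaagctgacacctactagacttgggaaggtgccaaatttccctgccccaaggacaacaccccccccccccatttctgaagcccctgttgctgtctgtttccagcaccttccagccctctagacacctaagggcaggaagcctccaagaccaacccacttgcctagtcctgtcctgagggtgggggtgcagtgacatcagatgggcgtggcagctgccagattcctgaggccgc

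The Lama5 window held 4 GC box matches and the Lamb3 window 0, while 32.6% of 32851 windows of the same length held at least 1. No match was found in either window, on either strand, to AP-1 (TGANTCA, in 6.74% of all windows), TCF/LEF (CTTTGA, 13.8%) or Gli (GACCACCCA, 0.222%), and no matches overlapped. The GC content was 72.3% for Lama5 and 58.6% for Lamb3, with a median of 52.2% over all windows. A match is a description of the letters and not evidence of binding. Of the 37 chains, 24 had a window in the table.

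The third comparison, EXO against NORMAL, asked how far treated skin lay from skin that had never had bleomycin. The keratinocyte chains had higher values in EXO in 7 of 8 cases, with Itgb6 as the exception, and in all 7 each EXO library exceeded the NORMAL library of its number. Lamb3 had a log2 change of 1.24 (SE 0.62), Itgb4 1.14 (SE 0.71), Itga6 1.05 (SE 0.66), Lama5 0.97 (SE 0.64), Itga3 0.80 (SE 0.66), Lama3 0.79 (SE 0.61) and Itga2 0.71 (SE 0.46), all with an adjusted p of 0.997 (limma). The groups overlapped for every keratinocyte chain, with NORMAL3 above at least 1 EXO library each time. Of all genes, 27.7% were higher in EXO in all 3 pairs. The keratinocyte median was 0.89, beside 0.17 for all genes, of which 67% were higher in EXO. It was 1.45 without NORMAL3, beside 0.35 for all genes, and 0.40 without NORMAL2, beside 0.06.

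For EXO against NORMAL, 0 of the 23 chains passed at an adjusted p below 0.05 (limma; 0% of all genes), 0 at an unadjusted p below 0.05 (2.33%) and 0 by the study's thresholds (1.71%). With the replicate block, 2 chains met the study's thresholds (3.44% of all genes), which were Lamb3 (unadjusted p = 0.0136) and Itgb4 (0.0161; limma), 0 passed at an adjusted p (0.021%) and 4 were past an unadjusted p of 0.05 (7.6%). Over the 23 chains, 9 were higher in EXO in all 3 pairs and 0 lower (5.75% of all genes), and 0 had groups that did not overlap (4.58% of all genes higher, 0.989% lower). Without NORMAL3 the count by these thresholds was 6, all keratinocyte chains, where 9.68% of all genes met them. The 3 comparisons share their groups and are not independent of each other.

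**Figure D4:**
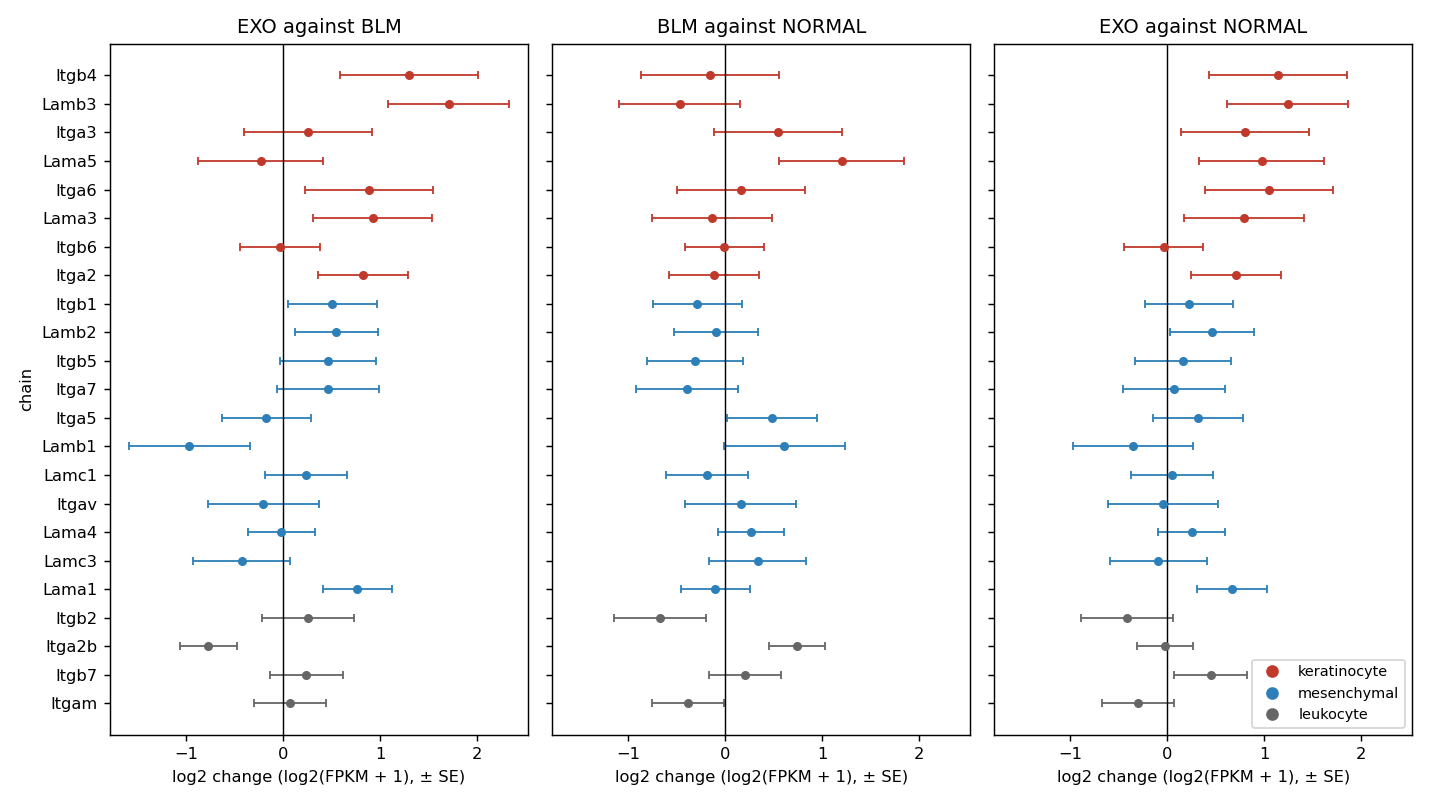
Log2 change with its standard error (limma, on log2(FPKM + 1), without the replicate block) of the 23 chains tested, in the comparisons EXO against BLM, BLM against NORMAL and EXO against NORMAL. Keratinocyte chains are in red, mesenchymal chains in blue and leukocyte chains in grey. Lamb3 has the largest value for EXO against BLM (1.71) and Lama5 for BLM against NORMAL (1.20).

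Among mesenchymal and widely made chains the most abundant was Itgb1, the β chain shared by most matrix integrins. Itgb1 lay at 8.68, 28.59 and 23.95 FPKM in EXO, 16.47, 11.43 and 10.38 in BLM and 14.65, 18.13 and 13.93 in NORMAL, with EXO1 the lowest library of all. Lamb2, a β chain of laminins in vessels, muscle and epidermis, lay at 20.80, 14.71 and 19.80 FPKM in EXO, 13.74, 6.62 and 19.13 in BLM and 14.27, 9.29 and 16.38 in NORMAL. Itgb5, which pairs with Itgav to bind vitronectin, lay at 16.61, 10.61 and 17.10 FPKM in EXO, 12.03, 4.71 and 17.87 in BLM and 12.31, 8.74 and 19.54 in NORMAL. The groups overlapped for all 3, and their log2 changes for EXO against BLM for Itgb1, Lamb2 and Itgb5 were 0.51, 0.55 and 0.47 (SE 0.43 to 0.49; limma, adjusted p = 0.824 to 0.877).

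Itga7, the laminin receptor chain of skeletal muscle, lay at 10.75, 1.89 and 3.29 FPKM in EXO, 3.44, 1.87 and 3.37 in BLM and 6.40, 3.62 and 2.69 in NORMAL. The summed FPKM of the 6 skeletal muscle markers was 30002, 5792 and 8724 in EXO, 7571, 5903 and 4372 in BLM and 42940, 29918 and 6011 in NORMAL, so the libraries rich in muscle transcripts (EXO1, NORMAL1, NORMAL2) were also the 3 highest for Itga7; the part of muscle in this was not tested. Itga5, the fibronectin receptor chain, lay at 4.59, 2.88 and 3.90 FPKM in EXO, 4.18, 2.78 and 6.72 in BLM and 2.48, 1.33 and 5.81 in NORMAL. It was higher in BLM than in NORMAL for all 3 pairs, with a log2 change of 0.48 (SE 0.46; limma, adjusted p = 0.922).

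Lamb1, the β chain of embryonic and vascular laminins, had the most negative log2 change for EXO against BLM, -0.96 (SE 0.62; limma, adjusted p = 0.805). It lay at 0.90, 1.78 and 1.35 FPKM in EXO, 3.39, 1.20 and 8.55 in BLM and 0.64, 1.22 and 6.10 in NORMAL. BLM3 and NORMAL3 were high, and BLM2 fell inside the EXO range. Without BLM2 the log2 change was -1.48 (unadjusted p = 0.0435, limma), which met the study's thresholds, and without BLM3 it was -0.42 (unadjusted p = 0.509, limma). Lamb3 over Lamb1 was 21.2, 14.4 and 28.5 in EXO, 2.99, 2.60 and 1.42 in BLM and 19.8, 3.22 and 3.70 in NORMAL. The EXO and BLM libraries did not overlap in this ratio, nor did they for Lamb3 alone. The ratio was chosen after the values were seen, and no share over all genes was taken for it.

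Lama1, an α chain of embryonic basement membranes, had 0.65, 2.19 and 2.38 FPKM in EXO, 0.71, 0.21 and 0.75 in BLM and 0.63, 0.36 and 1.01 in NORMAL. EXO2 and EXO3 were above all other libraries and EXO1 was not, and the log2 change for EXO against BLM was 0.77 (SE 0.36; limma, unadjusted p = 0.0556, adjusted p = 0.736). Itgav, which pairs with several β chains, was at 0.20, 3.03 and 0.25 FPKM in EXO, 1.61, 0.13 and 2.12 in BLM and 1.87, 1.11 and 0.09 in NORMAL, so that low and high libraries occurred in every group. Lamc1, the γ chain of most laminins, ranged from 1.03 to 4.25 FPKM over the 9 libraries with no order of the groups. Lama4, the α chain of vessel and fat laminins, ranged from 0.42 to 1.65 FPKM, and Lamc3 from 0.05 to 2.93 FPKM. Itgb6, Itga2, Itgav, Lama1, Itga11 and Itgb3 are given per library after their values were seen.

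The 8 mesenchymal chains that were not tested (Itga1, Itga8, Itga9, Itga10, Itga11, Itgb3, Itgb8 and Lama2) lay between 0.04 and 1.66 FPKM. Of these, Itga11, a collagen receptor chain of fibroblasts, had 0.21, 0.31 and 0.18 FPKM in EXO, 0.40, 0.34 and 1.66 in BLM and 0.11, 0.17 and 1.37 in NORMAL. All EXO libraries were below all BLM libraries, narrowly so for EXO2 (0.31) against BLM2 (0.34), in a chain under the limit for testing. No share over all genes was taken at such low values. The highest values of Itga11 were in BLM3 and NORMAL3, as for Lamb1.

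**Figure D5:**
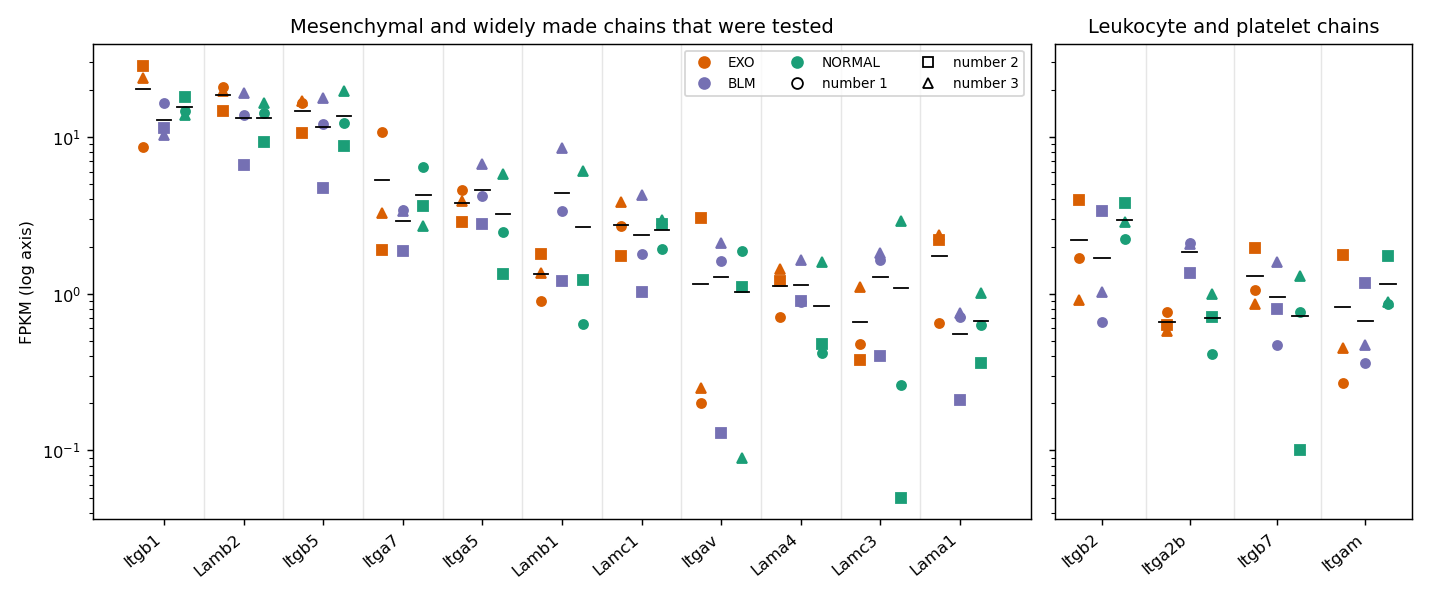
FPKM on a log axis of the 11 mesenchymal and 4 leukocyte or platelet chains that were tested, with EXO, BLM and NORMAL from left to right within each chain, 1 symbol per library and a bar at the mean. For Itga2b the BLM libraries, from 1.35 to 2.11 FPKM, stand above all EXO and NORMAL libraries, and for the other chains the groups overlap.

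Leukocyte and platelet chains were low. Itga2b, the α chain of the platelet fibrinogen receptor, was the one member whose BLM libraries stood clear of both other groups, at 0.77, 0.63 and 0.58 FPKM in EXO, 2.11, 1.35 and 2.07 in BLM and 0.41, 0.71 and 0.99 in NORMAL. Of all genes tested, 1.04% had every BLM library above every EXO and NORMAL library. Only the BLM libraries of Itga2b reached 1 FPKM, so it passed the filter for testing only through the group where it was high. Its gap and the p-values that follow are therefore a description and no support for a difference. The log2 change of Itga2b was -0.77 (SE 0.29; limma, unadjusted p = 0.0234, adjusted p = 0.637) for EXO against BLM and 0.74 (SE 0.29; unadjusted p = 0.0272, adjusted p = 0.644) for BLM against NORMAL. Itgb3, the β chain of the same receptor, had 0.42, 1.15 and 0.42 FPKM in EXO, 0.56, 0.62 and 1.48 in BLM and 0.47, 0.88 and 0.79 in NORMAL, with overlapping groups. Of 4 other platelet genes, Gp9 was at 0 in all BLM and NORMAL libraries and at most 0.16 FPKM in EXO, Ppbp was at most 0.30 FPKM, and Gp1ba lay at 0.41 to 1.21 FPKM in EXO, 0.34 to 0.63 in BLM and 0.38 to 0.88 in NORMAL. Pf4, which macrophages also make, lay at 3.15 to 43.36 FPKM in EXO, 7.16 to 33.68 in BLM and 15.06 to 26.10 in NORMAL. Their summed FPKM was 3.83 to 44.2 in EXO, 8.01 to 34.0 in BLM and 15.7 to 27.0 in NORMAL, and none of these 4 followed the order of Itga2b.

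Itgb2, the β chain common to the leukocyte integrins, lay at 1.69, 3.98 and 0.91 FPKM in EXO, 0.66, 3.39 and 1.03 in BLM and 2.24, 3.78 and 2.87 in NORMAL. BLM was below NORMAL in all 3 pairs, with a log2 change of -0.67 (SE 0.47; limma, adjusted p = 0.846), and the library numbered 2 was the highest in each group. Itgam, the α chain of macrophages and neutrophils, had 0.27, 1.76 and 0.45 FPKM in EXO, 0.36, 1.17 and 0.47 in BLM and 0.86, 1.73 and 0.88 in NORMAL, again with number 2 highest. The summed FPKM of 6 macrophage markers was 132, 503 and 48.6 in EXO, 64.1, 322 and 128 in BLM and 118, 232 and 275 in NORMAL. Itgb7, the β chain of gut-homing and epidermal lymphocytes, had 1.06, 1.96 and 0.86 FPKM in EXO, 0.47, 0.80 and 1.59 in BLM and 0.77, 0.10 and 1.30 in NORMAL, with a log2 change of 0.24 (SE 0.37) for EXO against BLM.

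Itgax, a chain of dendritic cells and macrophages, had 0.74, 0.71 and 0.27 FPKM in EXO, 0.38, 0.48 and 0.56 in BLM and 0.22, 0.19 and 0.71 in NORMAL. Itgae, of epidermal T cells, had 0.33, 0.12 and 0.15 FPKM in EXO, 0.27, 0 and 0.21 in BLM and 0.17, 0.03 and 0.61 in NORMAL. Itga4 and Itgal were at most 0.33 and 0.20 FPKM, and Itgb2l and Itgad were listed at 0 throughout. The pan-leukocyte gene Ptprc was itself at 0.16 to 0.53 FPKM over the 9 libraries, while Tyrobp, of myeloid cells, reached 8.90 to 110.14. The B cell gene Ms4a1 was listed at 0.

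The other genes of the adhesion machinery were read from a list of 51, of which 45 were tested. At an adjusted p below 0.05, 0 were called in any comparison (limma). By the study's thresholds, 7 were higher and 1 lower for EXO against BLM, beside 3.03% and 2.27% of all genes. With the replicate block they were 10 and 1, beside 4.81% and 2.89%. Without EXO3, and likewise without BLM2, the thresholds counted 1 partner, Spp1, higher in EXO (4.17% and 5.46% of all genes). With the smallest p among these were Dst, the hemidesmosomal plakin (log2 change 1.71), Postn, a matrix ligand of integrins (2.11), Col7a1, the anchoring fibril collagen (1.47), Sdc4, a syndecan (1.44), Col17a1, the transmembrane collagen of hemidesmosomes (1.68), and Col4a6, a basement membrane collagen (1.36), with unadjusted p from 0.013 to 0.0302 (limma). Col4a1, a main basement membrane collagen, was the 1 lower partner (-1.46, unadjusted p = 0.0442, limma), named after its values were seen. Dst, Postn, Col7a1, Sdc4, Col17a1, Col4a6 and Col4a1 each no longer met the thresholds without EXO3, nor without BLM2. Spp1 no longer met them without EXO2, BLM1 or BLM3. Dst lay at 10.49, 17.24 and 29.40 FPKM in EXO, 5.44, 2.22 and 7.83 in BLM and 8.05, 2.96 and 13.29 in NORMAL, and Col17a1 at 183.70, 269.30 and 434.36 in EXO, 123.79, 44.31 and 116.73 in BLM and 115.39, 46.69 and 258.29 in NORMAL. As for Lamb3, both had every EXO library above every BLM library, as had 11 of the 45 partners tested and 11.4% of all genes.

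The 7 genes of the hemidesmosome and anchoring fibrils were Plec, Col17a1, Cd151, Col7a1, Dst, Krt14 and Krt5. Krt5, Krt14 and Col17a1 are also among the basal keratinocyte markers summed above, so this set is not separate from those sums. All 7 had positive log2 changes for EXO against BLM, with a median of 1.51, beside 0.22 for all genes, of which 68.8% were higher. All 7 had negative ones for BLM against NORMAL, with a median of -0.37, beside -0.03 for all genes, of which 47.3% were higher. Genes of the basement membrane had medians of 0.09 and 0.37, with 5 of 10 higher in EXO than in BLM. The 12 intracellular adaptors had medians of 0.21 and -0.35. For BLM against NORMAL the study's thresholds counted 2 partners, both lower in BLM (3.02% of all genes). Fermt2, a kindlin that activates integrins, lay at 5.06, 4.77 and 6.44 FPKM in BLM and 19.72, 14.09 and 6.98 in NORMAL, with 9.89, 5.69 and 7.11 in EXO. NORMAL1, NORMAL2 and EXO1, the 3 libraries highest for Fermt2, were also the 3 with the largest sums of skeletal muscle markers given above, and the part of muscle in this was not tested. Vcl, vinculin of focal adhesions, lay at 0.32, 0.21 and 0.81 FPKM in BLM and 1.41, 4.17 and 1.33 in NORMAL. Every NORMAL library of Vcl reached 1 FPKM and no BLM library did, so the filter leaned on the group where it was high. Its count as lower in BLM is therefore a description and no support for a difference. Fermt2 no longer met the thresholds without BLM1, BLM2, NORMAL1 or NORMAL2, nor Vcl without BLM1, BLM2 or NORMAL2. With the replicate block the count was 3, all lower in BLM (4.55% of all genes), with the adaptor Lims1 added. For EXO against NORMAL they counted 1 partner, Postn (1.32% of all genes), at 47.17, 60.56 and 94.87 FPKM in EXO and 4.33, 2.34 and 33.03 in NORMAL. With the replicate block the count was 10, all higher in EXO (2.83% of all genes), and without NORMAL3 it was 14 higher and 2 lower, where 9.68% of all genes met the thresholds.

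Exons of other genes overlap those of some chains. Those tested were Itgb4 (with B230344G16Rik), Itga7 (Mettl7b), Lama3 (Gm29200), Lamc3 (Gm13441) and Itgav (Gm13684), all on the opposite strand, and Itgam (Gm49368), on the same strand. The libraries kept strand, but the strand setting of the counting is not given in the sources used here, so the values of these chains are uncertain where reads could be shared.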

How the data were processed

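RNA of 9 skin libraries was sequenced from strand-marked, poly(A)-selected libraries. The authors deposited FPKM in 1 table of 55382 genes; per the submitters' notes, reads were trimmed with cutadapt, aligned with HISAT2 2.0.4 (mm9) and quantified with StringTie 1.3.4d. The annotation release was, like the strand setting and filters, not given in the sources used here. Since FPKM hold no counts, depth is unknown and no count test was run. A larger share of 1 class of transcripts lowers all others.

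Genes with at least 1 FPKM in at least 3 libraries (14254) were fitted as log2(FPKM + 1) with limma 3.58.1 (R 4.3.3), mean-variance trend, all 9 libraries in 1 fit, Benjamini-Hochberg threshold 0.05. The method was tested on simulated data. Those were drawn independently for each library, so the test did not cover the pairing by number described below. Coordinates come from GENCODE M21 (GRCm38), matched by identifier. Tables were handled with pandas 2.3.3.

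Per-library values are given for chains that passed either threshold and for the 6 chains of each class with the highest means. A chain and a marker gene are not reported here, and the counts leave them out. Members and lists were chosen with earlier results of these data known. Deviations from group means correlated at 0.173 to 0.679 between libraries of the same number (9 pairs) and at -0.547 to 0.203 otherwise (18 pairs). Libraries may therefore be paired by number, which is read from the data and not from the labels. The main fit held no block. Standard errors and p-values per chain, also where plotted, therefore ignore this pairing unless the block is named. Blocked counts are given where they differ. For EXO against BLM the block changed the SE of Itgb4 from 0.71 to 0.39 (limma, unadjusted p from 0.0948 to 0.00853). The unadjusted p went from 0.159 to 0.0404 for Lama3 and from 0.103 to 0.0387 for Itga2. The SE of Itgav went from 0.57 to 0.58. The block was chosen on the same data to which it was fitted, so blocked p-values may be too small. Alternatives were other scales, pseudocount 0.1, no filter, only the 6 libraries compared, the block, and libraries left out. Ratios, and the block without the libraries numbered 2, were added after seeing the data.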

Additional observations from a re-analysis of the deposited data

How the results depend on the processing

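No chain passed an adjusted p of 0.05 under any alternative tried (limma). Of 258 values that answer a comparison 237 held and of 1683 single-gene values 1566 held. A count held when it was the same or within 1.5 times, and a median when it moved by less than its replicate standard deviation. That deviation was 0.87 for the keratinocyte chains, so their median for BLM against NORMAL held although it went from -0.06 to 0.48 without NORMAL3. A single-gene value held when its sign stayed, since 0 passed at an adjusted p. These limits are wide, and the shares say little about stability. For EXO against BLM the count past the study's thresholds, 1, was 2 with a pseudocount of 0.1 (6.04% of all genes), in a fit of only the 6 libraries compared (6.63%), without the libraries numbered 2 (5.45%) and with the replicate block (7.7%), 5 with the block at the same total (17.7%), 4 with the block without the libraries numbered 2 (9.44%), and 0 to 4 with 1 library left out. For BLM against NORMAL the count, 0, was 1 with median-ratio scaling (5.47%), quantile normalization (5.23%), a pseudocount of 0.1 (6.95%), the replicate block (8.43%), the block at the same total (13.7%) and the block without the libraries numbered 2 (7.63%), and 0 to 2 with 1 library left out. For EXO against NORMAL the count, 0, was 1 after quantile normalization (1.3%), 2 with the replicate block (3.44%), 3 with the block at the same total (5.58%), and 0 to 6 with 1 library left out. The leukocyte median for EXO against BLM was -0.19 to 0.30 with 1 library left out. Leaving out 1 library moved the log2 change by more than 1.5 times for 20 of the 23 chains for EXO against BLM and for 22 in each of the other comparisons. The counts at an unadjusted p with the replicate block stand beside the results above. The causes were not tested. Without counts, the precision of low FPKM is unknown.

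After median-ratio scaling the values that changed sign were Itga3 -0.00195, Itgam -0.0899 for EXO against BLM, and Itgav -0.0108 for BLM against NORMAL, and Itgb1 -0.045, Itgb5 -0.0999, Itga7 -0.16, Lamc1 -0.16 for EXO against NORMAL. After quantile normalization the values that changed sign were Itga3 -0.0216 for EXO against BLM, and Lamb2 0.0571, Itgav -0.0906, Col17a1 0.0561 for BLM against NORMAL, and Itga7 -0.16, Lamc1 -0.18 for EXO against NORMAL. Without the libraries numbered 2, with or without the replicate block, the values that changed sign were Itga3 -0.17, Itgam -0.0593 for EXO against BLM, and Itgb6 0.27, Itgb7 -0.0483, Lamb2 0.0805, Lamc1 0.17 for BLM against NORMAL, and Itgb6 0.22, Itgb7 -0.0437, Spp1 -0.0949 for EXO against NORMAL. At the same total, with or without the replicate block, the values that changed sign were Lama5 0.0896, Itgb6 0.22, Itga5 0.11, Lama4 0.19 for EXO against BLM, and Itga6 -0.0654 for BLM against NORMAL. Scaled to a total without mitochondrial, ribosomal and muscle genes the values that changed sign were Itgb6 0.0291, Lama4 0.0393 for EXO against BLM, and Itgb6 0.0192, Itga2b 0.0307, Lamc3 0.0596 for EXO against NORMAL. With a pseudocount of 0.1 the values that changed sign were Lamc3 0.35 for EXO against NORMAL. With 1 library left out, the log2 changes that changed sign for EXO against BLM ran over Itga3 -0.36 to 0.65, Lama5 -0.75 to 0.0808, Itgb6 -0.32 to 0.22, Itgb2 -0.12 to 0.68, Itgam -0.27 to 0.29, Itgb5 -0.0197 to 0.84, Itga7 -0.12 to 0.89, Itga5 -0.42 to 0.0982, Lamc1 -0.0648 to 0.62, Itgav -0.77 to 0.099, Lama4 -0.12 to 0.15, Vcl -0.16 to 0.46. With 1 library left out, the log2 changes that changed sign for BLM against NORMAL ran over Itgb4 -0.91 to 0.55, Lamb3 -1.09 to 0.0514, Itga3 -0.0486 to 1.16, Itga6 -0.32 to 0.70, Lama3 -0.62 to 0.41, Itgb6 -0.19 to 0.27, Itga2 -0.41 to 0.29, Itgb7 -0.0871 to 0.44, Lamb2 -0.40 to 0.30, Itgb5 -0.68 to 0.18, Lamc1 -0.57 to 0.12, Itgav -0.23 to 0.61, Lamc3 -0.0266 to 0.93, Lama1 -0.24 to 0.0721, Col17a1 -0.99 to 0.23, Col7a1 -0.92 to 0.0432, Col4a6 -0.65 to 0.20, Sdc4 -0.78 to 0.19. With 1 library left out, the log2 changes that changed sign for EXO against NORMAL ran over Itgb6 -0.32 to 0.21, Itga2b -0.15 to 0.0947, Itgb1 -0.084 to 0.72, Itgb5 -0.0962 to 0.44, Itga7 -0.51 to 0.50, Itga5 -0.0395 to 0.73, Lamb1 -0.78 to 0.28, Lamc1 -0.15 to 0.26, Itgav -0.62 to 0.26, Lamc3 -0.45 to 0.50.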
